A study of Mus musculus with 119 samples.

Results

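Bone marrow-derived macrophages (BMDMs) without the transcription factors ELK1 and ELK4 were compared with BMDMs in which the kinase TPL-2 is inactive, 2 h after addition of LPS, the bacterial ligand of the receptor TLR4. The comparison held 10 RNA-seq libraries, chosen by their labels and set apart from the other 109 of the series: 4 libraries of Elk1-/-Elk4-/- cells and 6 libraries of Map3k8[D270A] cells, both given LPS at 100 ng/ml. Unstimulated libraries of the same genotypes (4 and 6) served to measure the response to LPS, and 4 libraries of WT cells at 2 h are given beside the mutants. All mice were of the strain C57BL/6(NIMR), the cells were cultured for 7 days with L-cell conditioned medium and kept overnight in 1% FBS, and the labels name no Cre driver and no age. The study's methods call the libraries biological replicates, but neither they nor the labels say that libraries of a group came from separate animals, so p values measure the spread between these libraries, which may be in part technical. The labels place the Map3k8[D270A] and WT libraries in the TPL-2 experiment and the Elk1-/-Elk4-/- libraries in an experiment of their own, so that genotype and experiment cannot be told apart at a given time.

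TPL-2 is released from NF-κB1 p105 when the IKK complex is active, and it phosphorylates the MKK kinases, which phosphorylate ERK. ERK in turn phosphorylates many substrates, among them the kinases of the RSK family and the ternary complex factors (TCFs) ELK1, ELK4 and ELK3. TCFs bind DNA together with a dimer of SRF, at a CArG box beside an ETS site, and are known from growth factor-stimulated cells as activators of immediate early genes such as Egr1 and Fos. The comparison therefore sets loss of the kinase activity at the head of the pathway beside loss of a pair of its nuclear targets.

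Values are the deposited normalized expression values on a log2 scale, and every difference is Elk1-/-Elk4-/- minus Map3k8[D270A] unless stated otherwise. A gene was called when its limma adjusted p was below 0.05 and its difference reached 1 on that scale, which is 2-fold if the differences are true log2 values. The transformation behind the values is not given in these sources and may have drawn differences between libraries together. The study's methods give a typical sequencing yield but no depth for each library, and the values hold no read totals, so precision rests on the replicates.

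The genotype of the Elk1-/-Elk4-/- libraries was seen in the targeted genes. Elk1 (chrX:20933395-20950608 in GRCm38) was at 6.33, 6.26, 6.17 and 6.41 in the 4 Elk1-/-Elk4-/- libraries and between 8.55 and 8.87 in the 6 Map3k8[D270A] libraries, a difference of -2.4 (SE 0.05, adjusted p = 2.63e-41). Elk4 (chr1:132007577-132026448) was at 5.66, 5.83, 5.53 and 5.80 against 7.88 to 8.21, a difference of -2.34 (SE 0.07, adjusted p = 2.01e-32). Both transcripts were low without being absent, in every library of the mutant. Map3k8 (chr18:4331325-4352953) carries a point mutation in the other group, so its mRNA is no check, and it differed by -0.08 (adjusted p = 0.285), by -0.22 against the first set and by 0.07 against the second. All 21 macrophage markers were above the detection filter in both groups, and their summed level was between 19.35 and 19.44 in Elk1-/-Elk4-/- and between 19.28 and 19.48 in Map3k8[D270A] libraries on the log2 scale. Xist was below the filter in all of these libraries.

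The 6 Map3k8[D270A] libraries fell into a pair of sets, replicates 1 to 3 and replicates 4 to 6. At 2 h, 168 genes were called lower and 5 higher in replicates 4 to 6 than in replicates 1 to 3 (1.41% and 0.0421% of the 11884 genes tested). The root mean square distance between libraries over all genes had a median of 0.330 between the sets, of 0.160 and 0.172 within them, of 0.187 among the Elk1-/-Elk4-/- libraries, and of 0.366 and 0.421 between the Elk1-/-Elk4-/- libraries and each set. The sets are not named in the labels, and what distinguishes them was not tested. Values against each set are therefore given where the sets changed the result of a gene named, and the plot of differences by replicate set shows every gene called.

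At 2 h, 58 genes were lower (0.488% of those tested) and 126 higher (1.06%) in Elk1-/-Elk4-/- than in Map3k8[D270A] BMDMs. Of these, 52 and 117 had no overlap between the libraries of the groups, where 28.5% of all genes tested had none. Against each set of Map3k8[D270A] replicates taken alone, 38 genes were called lower and 74 higher both times, an alternative chosen after the data were seen. By the adjusted p alone 2759 genes were lower (23.2%) and 3135 higher (26.4%), so small differences between the groups were widespread, and the median difference of all genes was 0.0080.

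**Figure D1:**
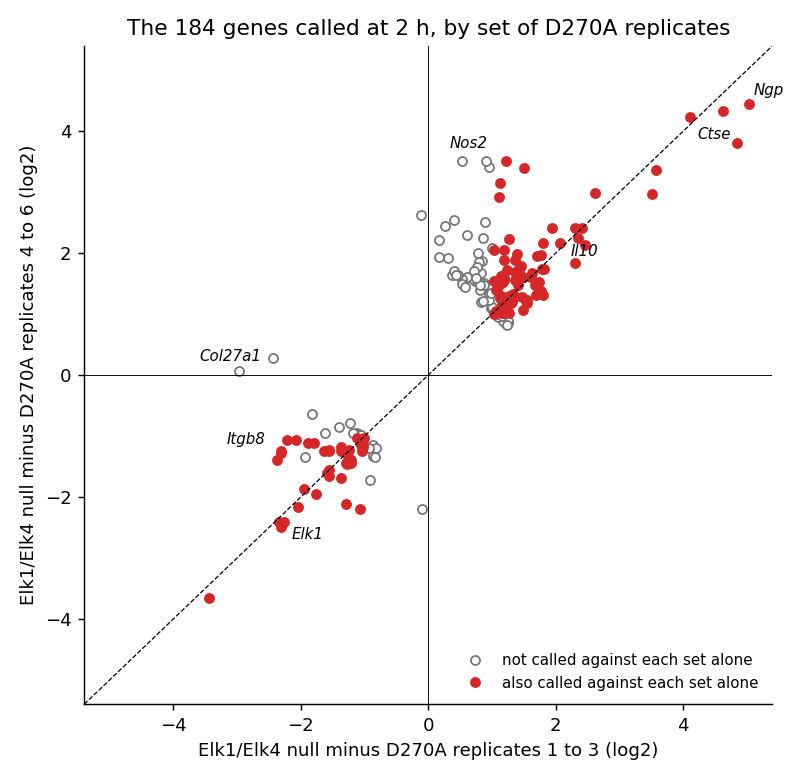
Each point is 1 of the 184 genes called at 2 h, with the difference from Map3k8[D270A] replicates 1 to 3 on the x axis and from replicates 4 to 6 on the y axis, both in log2 units, and the dashed line marks equal differences. Filled points, 38 lower and 74 higher genes, were also called against each set alone. Col27a1 and Nos2 lie far from the line.

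Many of these differences were present before LPS. Of the 58 lower genes, 33 were also called lower in unstimulated cells, and of the 126 higher genes, 58 were also called higher, while 0 were called in the opposite direction. In unstimulated cells as a whole, 63 genes were lower (0.53%) and 97 higher (0.816%). The response to LPS itself, 2 h against unstimulated, was smaller in Elk1-/-Elk4-/- cells for 21 genes (0.177%) and larger for 29 (0.244%) by the interaction term of the fit, in which a constant difference between experiments drops out. By the adjusted p alone 8.65% and 8.48% of genes had a smaller or larger response. Of the genes called at 2 h, 13 of the lower and 19 of the higher had such a different response. Against each replicate set alone, 11 responses were smaller and 13 larger both times.

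**Figure D2:**
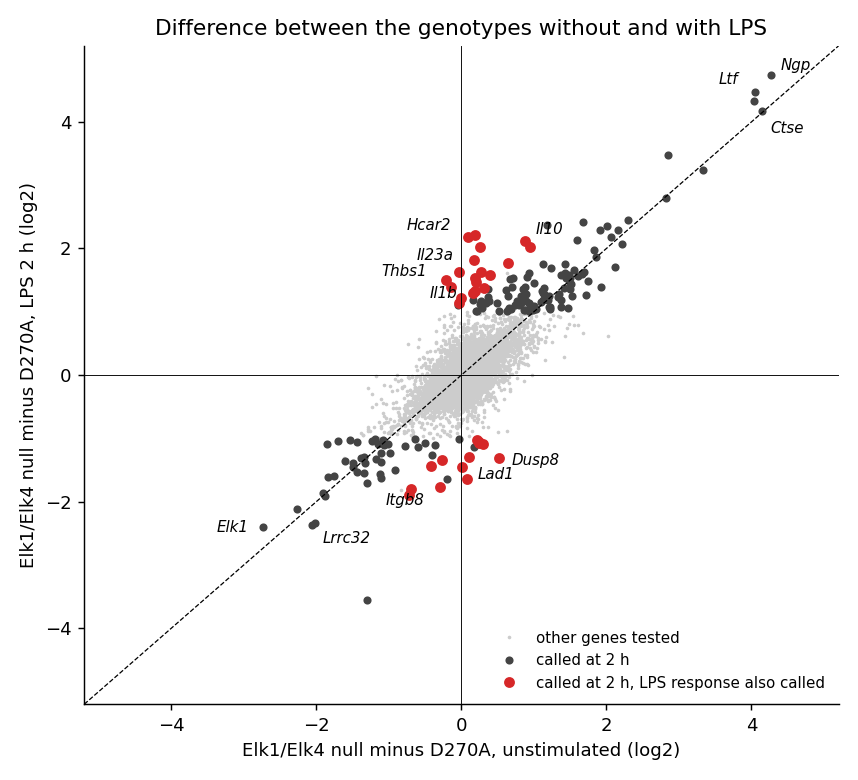
Each point is a gene, with the difference between Elk1-/-Elk4-/- and Map3k8[D270A] cells without LPS on the x axis and after 2 h of LPS on the y axis (log2). Genes near the dashed line, such as Ngp, Ctse and Elk1, differed by like amounts at both times, and the red points, such as Hcar2, Il23a and Dusp8, had a different response to LPS.

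A few cytokine genes were higher when ELK1 and ELK4 were missing than when TPL-2 was inactive. Of 24 cytokine genes tested, 5 were called higher (Il10, Il23a, Il1a, Il6 and Il1b) and 0 lower (1.06% and 0.488% of all genes were). By the adjusted p alone 8 were higher and 4 lower, near the shares of all genes (26.4% and 23.2%). The median of the list was 0.14, with members from -0.74 to 2.12. Against replicates 1 to 3 alone 4 cytokine genes were called higher, and against replicates 4 to 6 alone 7, where 103 and 236 of all genes were. All 5 also had a larger response to LPS in Elk1-/-Elk4-/- cells when the 6 Map3k8[D270A] libraries were pooled. Against replicates 1 to 3 alone the larger response was called for 2 cytokine genes, Il10 and Il23a. It was 0.99 for Il1b (adjusted p = 0.0152), 0.88 for Il1a (adjusted p = 0.0621) and 0.62 for Il6 (adjusted p = 0.159). Against replicates 4 to 6 alone it was called for 6. Of all genes, 20 and 88 had a larger response called against each set.

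Il10, the gene of the anti-inflammatory cytokine IL-10, was at 8.96, 9.06, 9.20 and 8.73 in the Elk1-/-Elk4-/- libraries. It was at 6.76, 6.92 and 7.07 in Map3k8[D270A] replicates 1 to 3 and at 6.67, 6.95 and 6.84 in replicates 4 to 6. Every Elk1-/-Elk4-/- library was thus above every Map3k8[D270A] library, and the sets were alike. The difference was 2.12 (SE 0.14, adjusted p = 3.38e-18), with 2.07 and 2.17 against each set. The WT libraries were between 9.22 and 9.69, with a mean of 9.44, above each Elk1-/-Elk4-/- library (mean 8.99, adjusted p = 0.0117). LPS raised Il10 by 1.86 in Elk1-/-Elk4-/- and by 0.61 in Map3k8[D270A] cells, and the responses differed by 1.24 (SE 0.20, adjusted p = 4.86e-06). A smaller difference of 0.88 was present before LPS.

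Il23a, which encodes the p19 subunit of IL-23, was at 5.78, 6.63, 6.83 and 5.89 in Elk1-/-Elk4-/- libraries and between 4.15 and 4.68 in the Map3k8[D270A] libraries. The groups did not overlap, although the Elk1-/-Elk4-/- libraries were spread more widely (SD 0.52 against 0.24). The difference was 1.82 (SE 0.23, adjusted p = 3.15e-09), and the WT mean of 6.15 lay beside the Elk1-/-Elk4-/- mean of 6.28.

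The genes of both forms of IL-1 stood between the other groups. Il1b was at 13.66, 13.72, 13.67 and 13.61 in Elk1-/-Elk4-/- libraries, at 12.57, 12.59 and 12.49 in the first set of Map3k8[D270A] libraries, at 12.17, 12.23 and 12.15 in the second, and between 14.44 and 14.68 in WT. The groups followed each other without overlap, with Elk1-/-Elk4-/- above Map3k8[D270A] by 1.30 (SE 0.18, adjusted p = 3.35e-08) and below WT. Il1a behaved alike, with 10.79, 10.96, 10.89 and 10.55 in Elk1-/-Elk4-/- libraries against 9.21 to 9.69 in Map3k8[D270A] and 11.53 to 11.85 in WT, and a difference from Map3k8[D270A] of 1.38 (SE 0.20, adjusted p = 1.73e-07). Il6 was between 9.24 and 9.53 in Elk1-/-Elk4-/- libraries, against 8.60 to 8.66 in the first set and 7.39 to 7.68 in the second. Its difference was 1.32 (SE 0.22, adjusted p = 1.89e-06), but only 0.79 against the first set, where it was not called, and 1.86 against the second.

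Other cytokine genes differed less or in the opposite direction. Csf2, the gene of GM-CSF, was at 3.71, 4.33, 4.12 and 4.35 in Elk1-/-Elk4-/- libraries and between 4.47 and 5.25 in Map3k8[D270A] libraries, a difference of -0.74 (SE 0.22, adjusted p = 5.27e-03) that was below the 2-fold threshold. It was -0.58 against the first set, where it did not pass the test (adjusted p = 0.0847), and -0.90 against the second. WT libraries were higher than both, with a mean of 6.09. Tnf had means of 14.84 and 14.66 in the mutants and 15.22 in WT, and Ifnb1 had means of 9.03 and 9.24 in the mutants and 8.24 in WT. Neither passed the test between the mutants (adjusted p = 0.169 and 0.217).

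**Figure D3:**
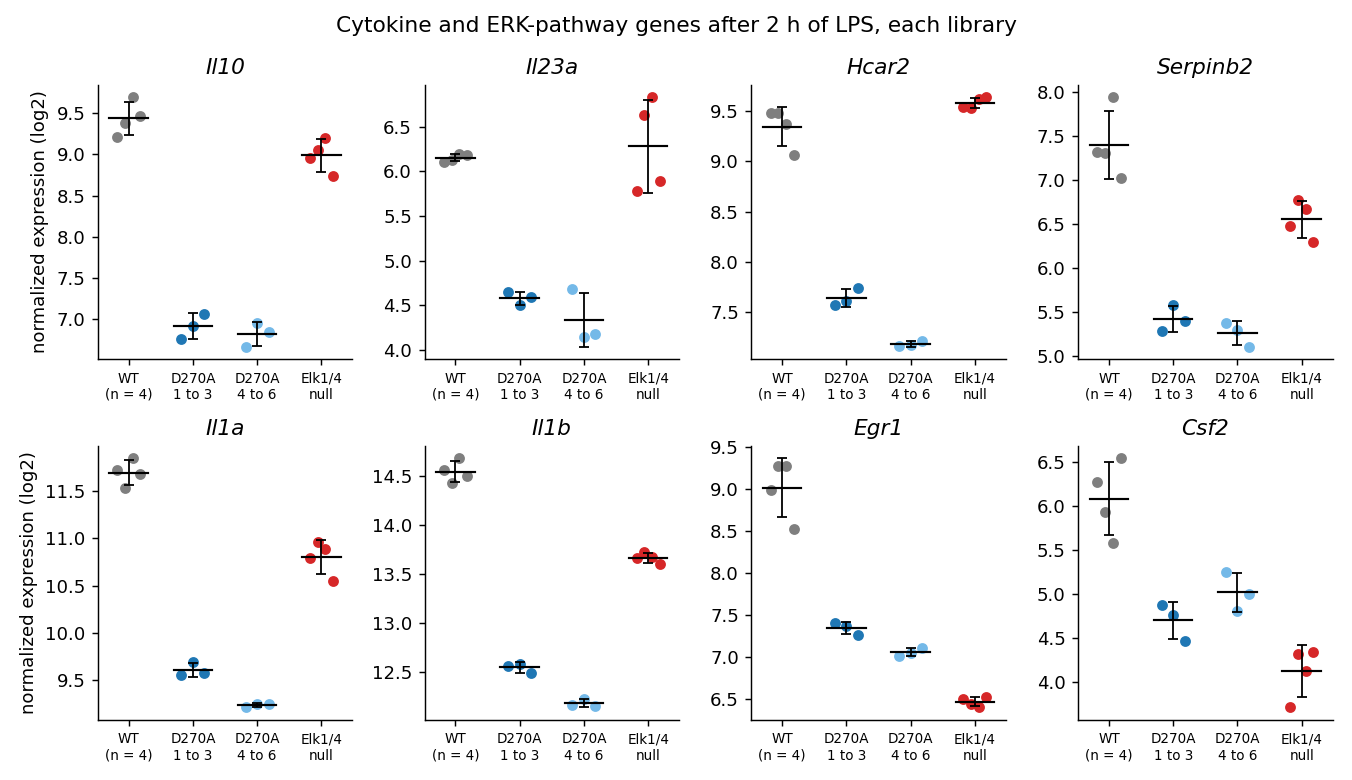
Normalized expression (log2) of 8 genes in each library after 2 h of LPS: WT (n = 4), Map3k8[D270A] replicates 1 to 3 and 4 to 6 (n = 3 each), and Elk1-/-Elk4-/- (n = 4), with bars at the mean and SD. Il10, Il23a, Hcar2, Serpinb2, Il1a and Il1b were higher in each Elk1-/-Elk4-/- library than in any Map3k8[D270A] library, and Egr1 and Csf2 were lower. The y axes do not start at 0.

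A further view comes from genes that need TPL-2 at an earlier time. At 1 h, 29 genes were called lower in Map3k8[D270A] than in WT libraries (0.244% of those tested), and those 1 h libraries are not among the ones compared at 2 h, although they share the fit's estimate of the spread. At 2 h, 12 of the 29 were higher in Elk1-/-Elk4-/- than in Map3k8[D270A] cells by the adjusted p, 3 were lower and 14 did not pass the test, where 26.4% of all genes were higher and 23.2% lower. Of the 12, 5 were at least 2-fold higher, and of the 3, 0 were 2-fold lower (1.06% and 0.488% of all genes were). Against both replicate sets, 8 were higher and 2 lower by the adjusted p. The share of all genes under that rule is not given, so no excess is read from these counts. Set beside WT at 2 h, 26 of the 29 were lower in Map3k8[D270A] (13.1% of all genes tested) and 22 in Elk1-/-Elk4-/- cells (23.1% of all) by the adjusted p, with medians of -1.22 and -0.84. Both comparisons with WT use the same WT libraries. Of these, replicate 7 lay below replicates 4 to 6 in some genes that split the Map3k8[D270A] sets. Examples were Col27a1 (8.19 against 9.38 to 9.57) and Lck (5.13 against 5.76 to 6.30), but not Adamts4 (11.70 against 11.46 to 11.99). Whether WT libraries fall into like sets was not tested, and comparisons with WT, which are not given by set, may lean towards 1 set. The 29 were chosen for being low in Map3k8[D270A] at 1 h, which can lean all of these counts and medians towards lower values in that mutant.

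Among the genes that were higher, Hcar2, which encodes the receptor for nicotinic acid and hydroxybutyrate, was at 9.54, 9.54, 9.62 and 9.64 in Elk1-/-Elk4-/- libraries. It was between 7.57 and 7.74 in the first and between 7.16 and 7.21 in the second set of Map3k8[D270A] libraries. The groups were far apart relative to their spread, with a difference of 2.18 (SE 0.16, adjusted p = 8.31e-17), and the Elk1-/-Elk4-/- mean of 9.58 was near the WT mean of 9.35. Serpinb2, the gene of plasminogen activator inhibitor type 2, was between 6.29 and 6.77 against 5.10 to 5.58, a difference of 1.22 (SE 0.15, adjusted p = 2.39e-09), while the WT mean was 7.39. Nr4a1, an orphan nuclear receptor and immediate early gene, was between 7.43 and 7.86 against 6.65 to 6.89 and differed by 0.77 (adjusted p = 3.00e-05).

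Ptgs2 and Adamts4 depended on the replicate set. Ptgs2, which encodes cyclooxygenase-2, was between 12.10 and 12.25 in Elk1-/-Elk4-/- libraries, at 11.93, 11.94 and 11.98 in the first set and at 10.84, 10.55 and 10.72 in the second. The difference of 0.86 (adjusted p = 5.79e-04) came to 0.24 against the first set, where it did not pass the test (adjusted p = 0.34), and to 1.49 against the second. Adamts4, an aggrecan-cleaving protease, differed by 0.95, by 0.13 against the first set and by 1.78 against the second.

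Egr1, Tnfsf4 and, against the pooled libraries, Csf2 were lower in Elk1-/-Elk4-/- than in Map3k8[D270A] cells. Egr1 was at 6.49, 6.44, 6.40 and 6.52, against 7.41, 7.37 and 7.27 in the first set and 7.01, 7.04 and 7.11 in the second, a difference of -0.74 (SE 0.15, adjusted p = 5.66e-05). The groups did not overlap, and both lay below the WT range of 8.53 to 9.28. Egr1 was also lower in unstimulated Elk1-/-Elk4-/- cells, by 1.13 on the log2 scale, and its response to LPS did not differ by the test (adjusted p = 0.205). Tnfsf4, which encodes OX40 ligand, differed by -0.82 (SE 0.20, adjusted p = 7.18e-04; -1.03 and -0.61 against each set), with means of 7.84 and 8.66 against 9.83 in WT.

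For the 14 genes that did not pass the test, the means of both mutants were below that of WT. Kdm6b, a histone demethylase gene, had means of 8.59 in Elk1-/-Elk4-/- and 8.67 in Map3k8[D270A] cells against 9.83 in WT. Phlda1 had means of 7.53 and 7.55 against 8.84, and Cebpb, a transcription factor of macrophages, had means of 10.13 and 9.97 against 11.50. A p that misses the threshold does not show that the mutants are alike in these genes. Rn45s, a ribosomal RNA precursor, is among the 14 and ranged from 14.12 to 17.50 within the Map3k8[D270A] group.

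**Figure D4:**
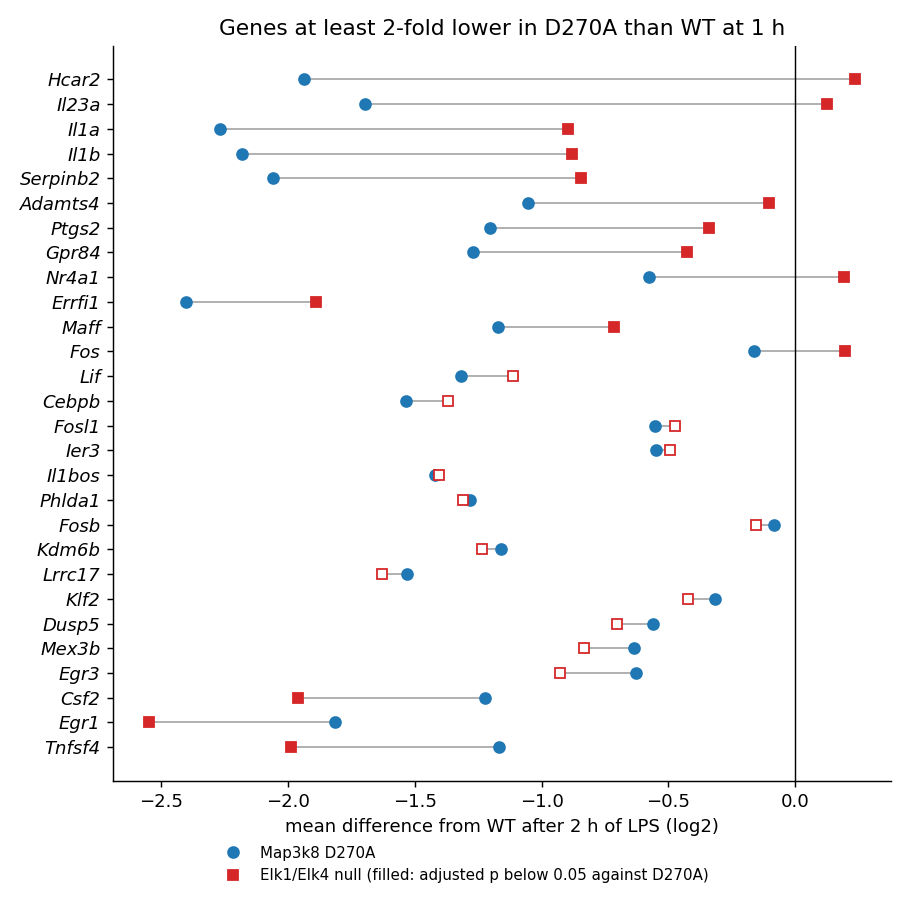
Mean difference from WT after 2 h of LPS (log2) for 28 of the 29 genes that were called lower in Map3k8[D270A] than WT at 1 h, in Map3k8[D270A] (circles) and Elk1-/-Elk4-/- cells (squares); Rn45s is left out for its spread. Filled squares passed the adjusted p between the mutants: the 12 at the top were higher and the 3 at the bottom lower in Elk1-/-Elk4-/- cells.

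Immediate early genes, the class through which TCFs are best known, differed in both directions, in shares near those of all genes. Of 22 tested, 0 were called in either direction, where 1.55% of all genes were. By the adjusted p alone 6 were lower and 7 higher, where 23.2% and 26.4% of all genes were. The medians of the list were -0.07 at 2 h and -0.10 without LPS. Egr1 and Nr4a1 were the members with the largest differences in each direction. Fos was between 9.26 and 9.38 in Elk1-/-Elk4-/- and between 8.76 and 9.16 in Map3k8[D270A] libraries, a difference of 0.36 (SE 0.10, adjusted p = 3.67e-03) that did not pass the test against the first set alone (adjusted p = 0.0758). Egr3 was between 6.13 and 6.27 against 6.01 to 7.04 and did not pass the test against the pooled libraries (adjusted p = 0.0928). Its difference was -0.01 against the first set and -0.585 against the second, where it passed (adjusted p = 2.24e-03). It had been lower by 1.23 before LPS, and it fell by 1.33 with LPS in Map3k8[D270A] cells and by 0.40 in Elk1-/-Elk4-/- cells. Many of these genes peak earlier than 2 h, and the earlier times were not compared here.

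Among the AP-1 genes, whose products pair as FOS, JUN and ATF family dimers, 0 of 18 were called, where 1.55% of all genes were. By the adjusted p 4 were lower and 6 higher, near the shares of all genes (23.2% and 26.4%). Jund was lower in every Elk1-/-Elk4-/- library (11.80 to 11.96) than in any Map3k8[D270A] library (12.49 to 12.78), a difference of -0.69 (SE 0.07, adjusted p = 1.94e-11). Jun, Junb, Fosl2 and Fosl1 did not pass the test (adjusted p = 0.862, 0.154, 0.752 and 0.709), although Jun was higher than the second set by 0.26 (adjusted p = 0.0230). Fosb was between 6.50 and 6.52 against 6.54 to 6.61, a narrow range that leaves its level hard to read.

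Of the TCFs and their partners, the remaining TCF Elk3 was slightly lower in Elk1-/-Elk4-/- cells. It was between 10.36 and 10.43 against 10.75 to 10.88, a difference of -0.43 (SE 0.03, adjusted p = 4.97e-16), and it rose with LPS by 0.49 in Map3k8[D270A] and by 0.02 in Elk1-/-Elk4-/- cells. Mkl1, the gene of an actin-regulated SRF cofactor, differed by -0.50 (SE 0.08, adjusted p = 3.84e-07). Srf was between 9.96 and 10.08 against 9.94 to 10.22, with a difference of -0.04 (SE 0.05, adjusted p = 0.509) that was -0.14 against the second set (adjusted p = 0.0213). Of 28 cytoskeletal genes known as SRF targets, 1 was called, where 1.55% of all genes were. By the adjusted p 5 were lower and 10 higher (23.2% and 26.4% of all genes were). The gene called was Cnn3 (calponin 3), between 7.03 and 7.23 against 5.38 to 6.49, a difference of 1.14 (SE 0.18, adjusted p = 3.46e-07). It came to 0.73 against the first set, where it was not called.

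CArG boxes were counted in RefSeq promoter windows of GRCm38.p6, from 250 bases before to 50 after a gene's start. The box reads the same on both strands, and the search allowed only A or T at its 6 inner positions. It was in 1.63% of all windows in the table and in a window of 1.47% of the 9153 tested genes that had one. Of the 117 genes called at 2 h with a window (28 lower and 89 higher), 0 had a box, which at this background share is a difference of few genes. Of the 17 immediate early genes with a window, 1 had a box, Egr2, whose level was 10.01 in Elk1-/-Elk4-/- and 10.05 in Map3k8[D270A] cells (adjusted p = 0.883). No match says only that the letters are not in the window. The windows of Srf and Egr2, chosen after their values were seen, are printed to show the element, with the boxes in capitals. That of Srf, chr17:46556113-46556412 on the minus strand, holds boxes that start 82 and 62 bases before the gene's start. That of Egr2, chr10:67537316-67537615 on the plus strand, holds a box 72 bases before it.
Srf: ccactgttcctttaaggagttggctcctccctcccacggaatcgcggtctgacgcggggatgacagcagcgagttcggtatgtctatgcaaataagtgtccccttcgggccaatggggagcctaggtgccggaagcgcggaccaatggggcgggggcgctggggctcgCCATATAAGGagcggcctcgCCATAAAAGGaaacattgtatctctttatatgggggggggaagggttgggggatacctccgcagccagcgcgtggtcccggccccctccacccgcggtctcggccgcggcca
Egr2: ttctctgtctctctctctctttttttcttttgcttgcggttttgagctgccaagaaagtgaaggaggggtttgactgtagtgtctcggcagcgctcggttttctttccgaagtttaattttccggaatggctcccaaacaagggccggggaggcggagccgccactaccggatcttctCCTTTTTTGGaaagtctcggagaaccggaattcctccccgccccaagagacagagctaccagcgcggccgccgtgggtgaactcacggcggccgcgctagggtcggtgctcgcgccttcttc

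Few feedback and kinase genes of the pathway were called. Of 16 ERK feedback inhibitors, which include the dual-specificity phosphatases and sprouty proteins, 1 was called lower and 0 higher (0.488% and 1.06% of all genes were). By the adjusted p 3 were lower and 9 higher (23.2% and 26.4% of all genes were), with a median of 0.29. The gene called was Dusp8, a phosphatase that acts on JNK and p38. It was at 6.59, 6.53, 6.28 and 6.51 in Elk1-/-Elk4-/- libraries and between 7.69 and 7.89 in all 6 Map3k8[D270A] libraries, a difference of -1.31 (SE 0.11, adjusted p = 4.01e-14). Before LPS its mean was higher in Elk1-/-Elk4-/- cells (7.60 against 7.08). LPS lowered it there by 1.12 and raised it by 0.70 in Map3k8[D270A] cells, so the responses differed by -1.82 (SE 0.16, adjusted p = 1.95e-12). The WT mean at 2 h was 6.77, nearer to Elk1-/-Elk4-/-. Of 17 genes from TPL-2 to the RSKs, 0 were called, where 1.55% of all genes were. By the adjusted p 5 were lower and 3 higher (23.2% and 26.4% of all genes were). Rps6ka2 had the largest difference, -0.46. Of 19 NF-κB genes 0 were called (1.55% of all genes were), and 4 were lower and 4 higher by the adjusted p (23.2% and 26.4% of all). The largest difference was in Nfkbid, a nuclear IκB protein, at -0.64 (adjusted p = 1.03e-04), and Nfkb1, which encodes p105, had a difference of 0.03 (adjusted p = 0.727) that was 0.21 against the second set (adjusted p = 6.80e-03). Of 12 mRNA decay factors 0 were called (1.55% of all genes were), and 3 were lower and 4 higher by the adjusted p (23.2% and 26.4% of all). The largest difference among them was in Tob2, -0.50.

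Interferon-stimulated genes were higher in unstimulated Elk1-/-Elk4-/- cells, while at 2 h the difference depended on the replicate set. Of 55 tested, 16 were called higher and 0 lower before LPS, and 50 were higher by the adjusted p (26.5% of all genes tested were), with a median of 0.90 (0.92 and 0.89 against each set of unstimulated Map3k8[D270A] replicates). At 2 h, 7 were called higher and 0 lower, 45 were higher and 1 lower by the adjusted p (26.4% and 23.2% of all genes were), and the median was 0.53. Against replicates 1 to 3 at 2 h the median was 0.03 and 0 were called higher. Against replicates 4 to 6 it was 1.12 and 33 were called higher. Of all genes, 103 and 236 were called higher against each set. No direction at 2 h is therefore read for the list as a whole.

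Irf7, a regulator of type I interferon, was higher than both sets, by 1.77 against the second and by less against the first. It was between 13.21 and 13.52 in Elk1-/-Elk4-/- libraries, at 12.57, 12.67 and 12.62 in the first set and at 11.49, 11.56 and 11.79 in the second, a difference of 1.27 (SE 0.18, adjusted p = 1.12e-07) that was 0.76 against the first set. Before LPS it was higher by 1.72. Iigp1, an interferon-inducible GTPase, was between 11.22 and 11.32, against 10.09, 9.67 and 11.21 in the first set and 7.60 to 8.08 in the second, so that 1 Map3k8[D270A] library came close to the other group. Nos2, inducible nitric oxide synthase, was between 12.06 and 12.26 in Elk1-/-Elk4-/- libraries, between 11.26 and 11.92 in the first set and between 8.21 and 9.03 in the second. Its difference of 2.02 (SE 0.45, adjusted p = 2.04e-04) was 0.53 against the first set (adjusted p = 0.273) and 3.52 against the second.

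Of 21 chemokine genes, 2 were called higher and 1 lower (1.06% and 0.488% of all genes were), and 11 were higher and 2 lower by the adjusted p (26.4% and 23.2% of all), with a median of 0.44. With replicates 1 to 3 alone 0 were called higher and the median was 0.18. With replicates 4 to 6 alone 5 were and it was 0.54. Of all genes, 103 and 236 were called higher against each set. Ccl7, a ligand of CCR2, was between 13.75 and 14.61 in Elk1-/-Elk4-/- and between 12.95 and 13.23 in Map3k8[D270A] libraries, a difference of 1.05 (SE 0.13, adjusted p = 3.83e-09) that was 0.92 without Elk1-/-Elk4-/- replicate 3 and 0.996 against the first set. Cxcl14 was between 6.43 and 7.11 against 7.82 to 8.23, a difference of -1.36 (SE 0.13, adjusted p = 7.39e-13) that was also present before LPS. Cxcl11, a ligand of CXCR3, overlapped between the groups (8.90 to 11.01 against 7.48 to 9.95), and its difference of 1.48 was 0.41 against the first set (adjusted p = 0.222). Cxcl2 did not pass the test (adjusted p = 0.217). Of 23 genes of TLR4, its adaptors and related receptors, 0 were called, where 1.55% of all genes were. By the adjusted p 4 were lower and 11 higher (23.2% and 26.4% of all genes were), with a median of 0.07. Tlr4 itself was between 11.29 and 11.63 against 10.60 to 10.99, a difference of 0.70 (SE 0.07, adjusted p = 1.68e-12), and its response to LPS did not differ by the test (adjusted p = 0.288).

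A few genes of sterol synthesis were higher in Elk1-/-Elk4-/- cells. Of 24 genes of cholesterol and fatty acid synthesis, 4 were called higher (Idi1, Fdft1, Fdps and Hmgcs1) and 1 lower (1.06% and 0.488% of all genes were). By the adjusted p 15 were higher and 4 lower (26.4% and 23.2% of all), with a median of 0.38. Against replicates 1 to 3 alone 7 were called higher, and against replicates 4 to 6 alone 1, where 103 and 236 of all genes were. Idi1, an isomerase of the mevalonate pathway, was between 11.70 and 11.86 against 10.08 to 10.74, a difference of 1.39 (SE 0.14, adjusted p = 1.93e-11). Fdft1, squalene synthase, differed by 1.04 and Fdps, farnesyl diphosphate synthase, by 1.03, and Fdft1, Fdps and Hmgcs1 were higher by 0.88, 0.85 and 0.89 against the second set, under the threshold. The gene called lower was Mylip, a ubiquitin ligase that directs the LDL receptor to degradation, with 10.39 to 10.56 against 11.50 to 11.74 and a difference of -1.10 (SE 0.08, adjusted p = 2.54e-17). Of 25 genes of glycolysis and hypoxia, 13 were lower and 3 higher by the adjusted p (23.2% and 26.4% of all genes were). The 1 gene called was Egln3, where 1.55% of all genes were called. Its difference of -1.09 was -0.86 against the first set, where it was not called, -1.32 against the second and -0.97 without Map3k8[D270A] replicate 4. Of 28 cell cycle genes and 18 genes of the integrated stress response 0 were called, where 1.55% of all genes were. By the adjusted p 2 cell cycle genes were lower and 4 higher, and 4 stress response genes were lower and 3 higher (23.2% and 26.4% of all genes were). The largest differences were in Ccnd2 (0.76) and Ddit3 (0.50).

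**Figure D5:**
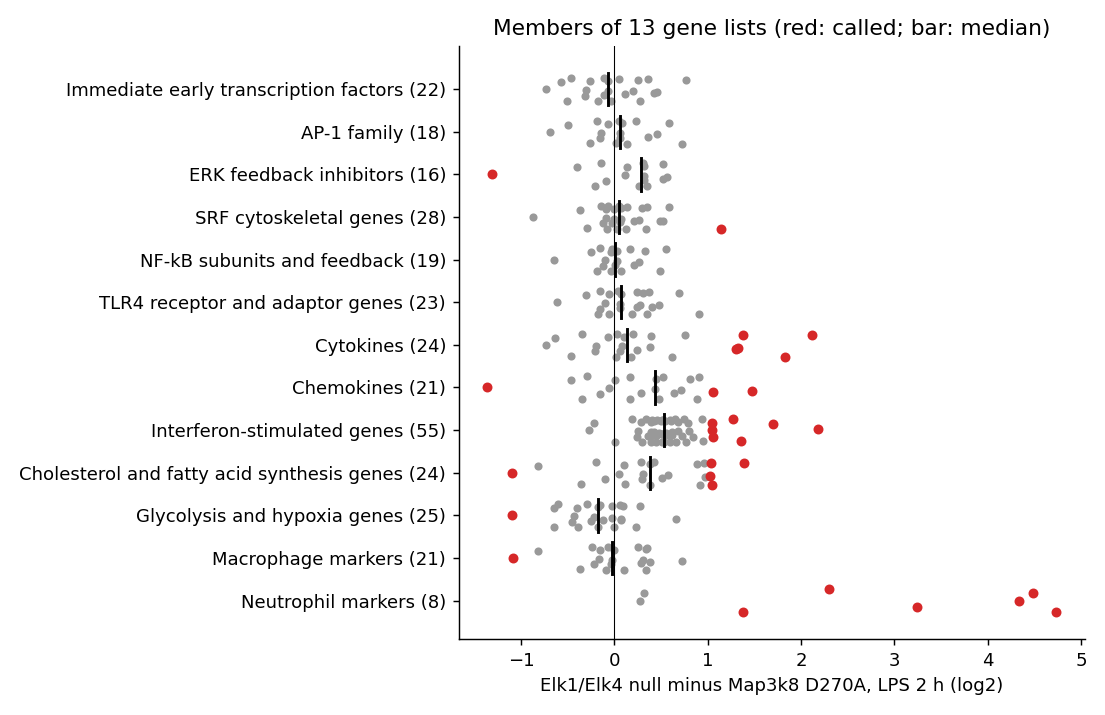
Difference at 2 h (log2) of each tested member of 13 gene lists, with the number of members in parentheses, called genes in red and the median as a bar, except for the neutrophil markers, some of which were below the detection level in the WT and Map3k8[D270A] libraries. Called cytokine genes were all higher, immediate early genes lay on both sides of 0, and several neutrophil markers stood far to the right.

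Outside these lists, several genes were lower in Elk1-/-Elk4-/- cells at both times. Lrrc32, which encodes the TGF-β docking protein GARP, was at 6.87, 6.78, 6.52 and 6.71 against 8.82 to 9.39, a difference of -2.37 (SE 0.22, adjusted p = 3.90e-13). Itgax, the integrin CD11c, was between 9.84 and 10.13 against 11.46 to 12.29, a difference of -1.92 (SE 0.21, adjusted p = 7.30e-11). Dcstamp, a fusion protein of osteoclasts and dendritic cells, was between 8.03 and 8.45 against 9.92 to 10.42, a difference of -1.86 (SE 0.18). Ppp1r1a, a protein phosphatase inhibitor, differed by -2.11. These 4 genes were about as much lower before LPS, and their response to LPS did not differ by the test (adjusted p between 0.543 and 0.963). Fn1, fibronectin, differed by -1.70 and ranged from 7.06 to 9.14 within the Map3k8[D270A] group, and Mmp9, a gelatinase, differed by -1.32, with -0.91 against the first set.

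Other lower genes had a smaller response to LPS against the pooled Map3k8[D270A] libraries. Slc7a2, a cationic amino acid transporter, rose by 4.43 in Map3k8[D270A] and by 3.27 in Elk1-/-Elk4-/- cells and was lower at 2 h by 1.89. Itgb8, the β8 integrin chain, was at 7.93, 8.0, 6.98 and 7.66 against 9.68 to 10.35 in the first set and 8.63 to 9.22 in the second, a difference of -1.77 (SE 0.20, adjusted p = 3.43e-10). Lad1, a basement membrane protein also called ladinin, was between 3.55 and 4.29 against 4.66 to 6.39, a difference of -1.65 (SE 0.26, adjusted p = 4.66e-07). Pmepa1, an inhibitor of TGF-β signaling, differed by -1.80. In all of these, the second set of Map3k8[D270A] libraries was nearer to the Elk1-/-Elk4-/- libraries, and the difference at 2 h from that set was still at least 1.07 in size. The response differed from that set by -0.80 for Slc7a2 and -0.75 for Pmepa1, which did not pass the test (adjusted p = 0.0564 and 0.0693), by -0.93 for Itgb8 (adjusted p = 0.0171) and by -1.18 for Lad1 (adjusted p = 0.0273). Col27a1, a collagen gene, was 2.97 lower than the first set and 0.06 higher than the second, so no direction is read for it.

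Among genes with a larger response to LPS, Upp1, uridine phosphorylase, was at 7.16, 7.18, 7.20 and 7.27 against 5.14 to 5.88, a difference of 1.63 (SE 0.12, adjusted p = 6.94e-16), with unstimulated means of 4.19 and 4.22. Thbs1, thrombospondin, was between 10.71 and 10.84 against 8.76 to 9.83. LPS raised it by 0.84 in Elk1-/-Elk4-/- cells and lowered it by 0.87 in Map3k8[D270A] cells, and the responses differed by 1.71 (SE 0.25, adjusted p = 1.30e-06). Serpina3f and Serpina3g, near copies of each other among which reads may be divided, differed by 2.21 and 2.37, by 0.91 and 1.22 against the first set and by 3.51 and 3.52 against the second. The larger response of Serpina3g did not pass the test (1.19, adjusted p = 0.104), and that of Serpina3f (2.02) was 0.66 against the first set (adjusted p = 0.267). Hdc, histidine decarboxylase, was between 8.06 and 9.0, against 7.15 to 7.40 in the first set and 5.41 to 5.57 in the second, a difference of 2.02 (SE 0.24, adjusted p = 7.37e-10), and its larger response (1.07) was 0.13 against the first set (adjusted p = 0.722).

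Neutrophil markers were among the genes with the largest differences and were higher in Elk1-/-Elk4-/- cells with and without LPS. Of 13 neutrophil markers 8 were tested. Of these, 3 (Camp, Retnlg and Cxcr2) were below the detection level in every WT and Map3k8[D270A] library without LPS and at 1 and 2 h, so no count or median over the list is read. Of the other 5, Ngp, Ltf, S100a9 and S100a8 were called higher at 2 h and Mmp8, a neutrophil collagenase, differed by 0.31. Ngp, neutrophilic granule protein, was at 9.10, 8.85, 9.01 and 8.92 against 3.87 to 4.62 (difference 4.74, SE 0.26, adjusted p = 8.09e-22). Ltf, lactoferrin, differed by 4.48, S100a9 by 4.33 and S100a8 by 3.24. Outside the list Chil3 differed by 3.47, Lcn2 by 2.80, Ly6c2 by 2.41 and Plac8 by 2.35. The defining markers Ly6g, Elane and Mpo were below the filter in all libraries without LPS and at 2 h and were not tested. At 2 h Ly6g was between 0.20 and 0.60 in Elk1-/-Elk4-/- and between -0.24 and -0.19 in Map3k8[D270A] libraries, Elane was between 0.07 and 0.25 against -0.14 to -0.08, and Mpo was between 1.37 and 1.80 against 0.70 to 0.84. The summed level of the 13 markers was between 11.23 and 11.48 in Elk1-/-Elk4-/- libraries at 2 h, between 9.23 and 9.99 in Map3k8[D270A] and between 9.20 and 9.68 in WT libraries, against 19.28 or more for the macrophage markers. In bulk samples more cells of a type and more RNA per cell cannot be told apart. Before LPS, Il10 differed by 0.88 (adjusted p = 7.34e-07). The other 4 cytokine genes called at 2 h differed by 0.16 to 0.31 before LPS and did not pass the test (adjusted p between 0.205 and 0.536). The part of the neutrophil genes' source in the differences at 2 h was not tested, and values before LPS do not test it. The macrophage marker called lower was Lyz1 (-1.09, and -0.84 against the first set, where it was not called), whose reads may be divided with its near copy Lyz2. Among markers of other cells, Hdc was the mast cell and basophil gene called, Fn1 the stromal one, and the B cell gene Cd79b, the platelet gene Pf4 and the dendritic cell genes Bst2 and Zbtb46 differed by 0.71, 0.87, 0.66 and -0.66, while the T cell gene Lck was lower by 0.60 than the first set and higher by 0.59 than the second (adjusted p = 6.23e-03 and 7.43e-03). Pf4 differed by 1.21 and 0.53 against each set.

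Some of the genes called lie near the mutated genes. Of 77 tested genes within 10 Mb of Elk4, 6 were called at 2 h (7.79%, where 1.55% of all genes tested were called). Chil1 was below the detection level in the WT and Map3k8[D270A] libraries, and without such genes the count was 5 of 76 (6.58%), where 1.49% of all were called. There were 30 genes and 0 called around Elk1 and 35 genes and 2 called around Map3k8 (5.71%). The 6 near Elk4, of which Cd55, Mfsd4a and Lad1 were chosen for this after their values were seen, were Ctse (0.332 Mb from Elk4, difference 4.17), Il10 (0.983 Mb, 2.12), Cd55 (1.54 Mb, 1.61), Chil1 (2.16 Mb, 1.76), Lad1 (3.79 Mb, -1.65) and Mfsd4a, which overlaps the end of Elk4 in the annotation (-1.24). Ctse, cathepsin E, was between 9.50 and 9.89 in Elk1-/-Elk4-/- libraries and between 5.37 and 5.71 in Map3k8[D270A] libraries, and it differed as much without LPS (4.14). Il10 (chr1:131019845-131024970) and Lad1 (chr1:135818598-135833341) were the 2 of the 6 whose response to LPS was also called. The genes near Map3k8 were Colec12 (5.35 Mb, -1.11) and Cables1 (7.49 Mb, -1.04, and -0.97 against the second replicate set). Whether the targeted alleles' surroundings have a part in these differences was not tested.

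The largest lower value, that of Amd2 (-3.55), is uncertain, because Amd2 and Amd1 are near-identical copies. Amd2 was between 8.75 and 9.97 in Map3k8[D270A], between 5.45 and 5.69 in Elk1-/-Elk4-/- and between 6.65 and 9.44 in WT libraries, while Amd1 ranged from 7.00 to 9.77, from 10.18 to 10.29 and from 9.25 to 10.42. With the linear values of both copies summed, an alternative chosen after the data were seen, the difference was 0.0065. The sums were 10.28 ± 0.05 (SD, n = 4) in Elk1-/-Elk4-/- and 10.28 ± 0.09 (SD, n = 6) in Map3k8[D270A] libraries. Eif3j1 and Eif3j2 gave a like picture, with a difference of 0.088 for the sum.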

How the data were processed

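RNA was sequenced from mouse BMDMs. The authors aligned the reads and estimated expression per gene, and the labels' processing notes name RSEM 1.2.29, STAR 2.5.1b, DESeq2 1.10.1 and the build mm10, while the study's methods name other versions of RSEM and STAR. The deposited values are on a log2 scale, normalized across libraries. Their transformation is not given in these sources, no counts could be read from them, and a pseudocount was not needed. A single value above 25, outside the libraries compared, was treated as missing. Groups came from the labels. Group means of 62 libraries (WT, Map3k8[D270A] and Elk1-/-Elk4-/- at 4 times) were fitted with limma 3.58.1 in R 4.3.3 without a trend, for the 11884 of 18098 genes that reached 10 on the linear scale in 4 or more libraries. All adjusted p values are limma's with Benjamini-Hochberg adjustment over these genes. The fit was tested on simulated data. Within Map3k8[D270A], unstimulated and 2 h libraries of the same number deviated together (correlations from 0.12 to 0.41, 5 of 6 best with their own number), but not in every pair of Elk1-/-Elk4-/- libraries (-0.05 to 0.31), and the fit had no block. Marker sums add linear values and are given as log2. Positions and promoter sequences are from RefSeq (GRCm38.p6), with a position for 11838 tested genes.

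The genes named are those of the TCF list and of the study's text, the 12 called in each direction with the largest difference at 2 h and no overlap, up to 4 called members of each other list (or 2 where none was called), the 6 in each direction with the largest difference in response, up to 6 in each direction of the genes lower in Map3k8[D270A] at 1 h, and up to 3 called near each mutated gene. Others were named after their values were seen. The comparison, the gene lists and the tests were chosen with earlier results of these data known. Alternatives were other sets of libraries in the fit, scalings, filters, thresholds, limma settings, single sets of Map3k8[D270A] replicates, left-out libraries and a replicate block.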

Additional observations from a re-analysis of the deposited data

Results flagged for a closer look

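In 4 of 210 groups of libraries examined, counted gene by gene, a single library stood apart from the rest of its group at 2 h. The rule is one that chance meets in about 1 group in 20. The share found was smaller than that, so none is read as a result. These were Jund in Map3k8[D270A] replicate 4 (12.78), Rn45s in Map3k8[D270A] replicate 2 (17.50), Serpina3g in Elk1-/-Elk4-/- replicate 1 (9.34), and Tnip3, an inhibitor of NF-κB signaling, in Elk1-/-Elk4-/- replicate 4 (14.33).

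The response to LPS differed between the genotypes, by the interaction term of limma and by at least 1 with all 6 Map3k8[D270A] libraries, for 22 of the genes named. It was larger in Elk1-/-Elk4-/- than in Map3k8[D270A] cells for Hcar2 (2.09), Serpina3f (2.02), Nos2 (1.76), Thbs1 (1.71), Upp1 (1.66), Il23a (1.64), Cxcl11 (1.27), Il10 (1.24), Serpinb2 (1.22), Cnn3 (1.18), Il1b (1.14), Il6 (1.13), Hdc (1.07) and Il1a (1.06). It was smaller for Dusp8 (-1.82), Lad1 (-1.72), Clk1 (-1.51), Itgb8 (-1.48), Col27a1 (-1.46), Vcam1 (-1.41), Slc7a2 (-1.16) and Pmepa1 (-1.10). Clk1, a kinase of splicing factors, rose by 0.78 with LPS in Map3k8[D270A] cells and fell by 0.74 in Elk1-/-Elk4-/- cells. Vcam1, an adhesion molecule, had an unstimulated mean of 7.59 in Elk1-/-Elk4-/- and 5.56 in Map3k8[D270A] cells and means of 10.39 and 9.77 at 2 h, so its smaller response went with a higher starting level. Of the 22, only 6 larger responses (Hcar2, Thbs1, Upp1, Il23a, Il10 and Serpinb2) and 4 smaller ones (Dusp8, Lad1, Clk1 and Vcam1) were also called against each Map3k8[D270A] replicate set alone. Against replicates 1 to 3 the response did not pass the test for Serpina3f (0.66), Nos2 (0.14), Cxcl11 (0.33), Il6 (0.62), Hdc (0.13) or Il1a (0.88), and Cnn3 (0.67) and Il1b (0.99) passed with a difference under 1. Against replicates 4 to 6 it did not pass for Col27a1 (-0.0088), Slc7a2 (-0.80) or Pmepa1 (-0.75), and Itgb8 (-0.93) passed with a difference under 1 in size. No direction is read for Col27a1.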

How the results depend on the processing

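The counts depended on which Map3k8[D270A] replicates were used and on the threshold. Against replicates 1 to 3 alone 106 genes were lower and 103 higher at 2 h, and against replicates 4 to 6 alone 64 and 236. Both sets called 38 and 74. Smaller and larger responses to LPS numbered 96 and 20 against the first set, 30 and 88 against the second, and 11 and 13 against both. Col27a1 changed sign, from -1.46 to 0.0605 against replicates 4 to 6. Array weights gave 92 lower genes at 2 h and 77 smaller responses. A 1.5-fold threshold gave 260 lower and 432 higher genes at 2 h, 148 smaller and 143 larger responses, and 243 lower and 436 higher unstimulated genes. A threshold at the natural logarithm of 2 gave 174 and 311, 83 and 89, and 164 and 302, and the adjusted p alone 2759 and 3135, 1028 and 1008, and 2835 and 3155. The cause of these shifts, beyond the looser thresholds themselves, was not tested.

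Leaving out single replicates gave 51 to 66 lower and 112 to 141 higher genes at 2 h, 20 to 26 smaller and 24 to 35 larger responses, and 60 to 74 lower and 93 to 116 higher unstimulated genes. Of the 56 named genes called, 52 stayed called each time, and 39 were called against each replicate set. The exceptions to the former were Ccl7 (0.92), Egln3 (-0.97), Fdps (0.96 and 1.00, the latter just under the threshold) and Cables1 (-0.97 and -0.99). Calls also ended for 9 with array weights (values from 0.26 for Slfn4, an interferon-induced gene, to 0.99 for Nos2 in size), for 4 with only the libraries compared (Col27a1, Cxcl11, Nos2 and Slfn4) and for 3 with quantile normalization (Ccl7 0.98, Fdft1 0.97 and Fdps 0.90).

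Replicate numbers are shared across genotypes but did not pair the libraries of different genotypes: deviations of same-numbered libraries at 2 h correlated at -0.14, 0.11, -0.09 and -0.08, and 1 of 4 correlated best with its own number. With a replicate block, 65 genes were lower and 124 higher at 2 h, and 25 responses were smaller and 30 larger. With the block within genotype, 25 were smaller and 29 larger. Other scalings, filters and fits kept the counts within 1.5 times. The depth of each library is not given, which limits what can be said of genes with low values.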

Other observations

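Set beside WT libraries at 2 h, the genes called between the mutants fell in several positions. Of the 126 genes higher in Elk1-/-Elk4-/- than in Map3k8[D270A] cells, the WT mean was between the mutants for 66, below both for 51 and above both for 9. Of the 58 lower genes it was between them for 38, above both for 19 and below both for 1. The WT mean was nearer to that of Elk1-/-Elk4-/- cells for 21 of the higher and 8 of the lower genes. The WT and Map3k8[D270A] libraries share an experiment, so these counts and the experiment cannot be told apart. LPS raised 44 of the higher and 17 of the lower genes at least 2-fold in WT cells. The share of all genes that LPS raised in WT is not given, so nothing is read from these counts.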
